A study of Mus musculus with 12 samples.

Results

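The genes described here are 9 transcription factors of the skeletal muscle lineage: the myogenic regulatory factors Myod1, Myog, Myf5 and Myf6, the MEF2 factors Mef2a, Mef2c and Mef2d, the satellite cell factor Pax7 and the homeobox factor Six4. They were chosen by name, as every probe set of the array table assigned to one of these symbols, and each had exactly 1 probe set. They are thus 9 of 23185 genes with a single symbol. Their RNA was measured in gastrocnemius, the large calf muscle, of 12 mice. All mice were of the strain BKS.Cg-Dock7m +/+ Leprdb/J, which lacks a working leptin receptor and is obese and diabetic, and were 12 weeks old. Every mouse, controls included, received adenovirus that codes for a short hairpin RNA (shRNA), a construct meant to lower its target transcript, and muscle was taken 1 week later. The total dose was 4e9 plaque-forming units in every group. The control group (animals 18, 19 and 20) received control shRNA virus alone. The LCN13 group (21, 22 and 23) received 2e9 units of virus against the secreted lipocalin LCN13, and the TSC22D4 group (25, 26 and 27) as much virus against the transcriptional regulator TSC22D4, each made up with control virus. The TSC22D4+LCN13 group (29, 30 and 32) received 2e9 units of each target virus and no control virus. Control virus thus fell as target virus rose. Where compared groups differ in control virus dose, less control virus and more target virus cannot be told apart. Of 7 mice treated per group, 3 that the labels call representative were put on arrays, which may narrow the spread. With 3 arrays a group, precision is limited.

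Myod1 and Myf5 are basic helix-loop-helix (bHLH) factors that commit precursors to the muscle lineage, Myog drives their terminal differentiation, and Myf6 (also called MRF4) is the family member that persists in mature fibres. They bind the E-box CANNTG together with ubiquitous E proteins, are blocked by Id proteins, and work with MEF2 factors, which bind AT-rich sites in muscle promoters. Pax7 marks satellite cells, the resident stem cells that lie along the fibre and rebuild it after injury. Six4 and its relatives bind MEF3 sites and act upstream of the myogenic factors in the embryo and on fibre genes in the adult.

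Sequence is shown for Myog and Six4 because, among the members, theirs are the windows that hold a MEF3 site, and the Myog window carries the target motifs of 3 of these families side by side. RefSeq promoter sequence (build GRCm38.p6) was found for 7 of the 9 members, in 10 windows, each of 250 bases ending just before the start of transcription. Capitals mark the matched motifs, and each sequence runs 5′ to 3′ along the gene's own strand. The Myog window is chr1:134289754-134290003 on the plus strand and the Six4 window shown is chr12:73113246-73113495 on the minus strand. The other Six4 window, chr12:73113426-73113675, belongs to another annotated start and held none of the motifs searched.
Myog: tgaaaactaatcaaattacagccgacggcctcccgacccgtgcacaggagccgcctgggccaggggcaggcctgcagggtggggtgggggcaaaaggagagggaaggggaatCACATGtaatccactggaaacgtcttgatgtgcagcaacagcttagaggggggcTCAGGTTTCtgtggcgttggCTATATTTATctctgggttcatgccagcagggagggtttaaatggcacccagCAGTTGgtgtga
Six4: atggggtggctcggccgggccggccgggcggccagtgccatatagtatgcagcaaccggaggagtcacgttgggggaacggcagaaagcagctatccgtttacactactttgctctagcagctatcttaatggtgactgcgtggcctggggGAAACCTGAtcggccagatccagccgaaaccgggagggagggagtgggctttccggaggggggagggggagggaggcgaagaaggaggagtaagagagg
In the Myog window the capitals are, in order, the E-box CACATG starting 138 bases before the start site, the MEF3 site TCAGGTTTC at 84 bases, the MEF2-type run CTATATTTAT at 64 bases and the E-box CAGTTG at 12 bases. In the Six4 window the capitals GAAACCTGA, 99 bases before the start, are the MEF3 letters TCAGGTTTC read on the other strand. Both strands were searched in 32851 windows of the same length. An E-box was present in 66.2% of them, the E-box form CAGCTG preferred by MyoD in 13%, the MEF3 letters in 0.387% and the MEF2 consensus in 2.92%, or 7.03% when its last base was left free as the Myog match requires. A match to these letters describes the sequence and does not show that a factor bound there.

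The tissue check came first. All 10 markers of muscle fibres, among them Acta1, Ckm and Ttn, had log2 levels of 13.17 to 14.06, at or above the 99.8th percentile of all genes. The 10 satellite cell markers ranged from 5.33 for Calcr, the calcitonin receptor of quiescent satellite cells, to 10.47 for Itga7, an integrin that fibres also carry. Array to array correlations were 0.990 to 0.998. The TSC22D4 target showed no fall in its own group (log2 difference of Tsc22d4 from control 0.24, limma adjusted p = 0.619). Lcn13, listed as Obp2a, lay between 4.90 and 4.97 on every array, too close to the lowest values to judge its knockdown, so directions below refer to groups as labelled. Mean levels of some, but not all, other marker lists differed between groups. That of 13 endothelial and mural markers overlapped between all groups, at 8.77 to 9.15 in control and 8.84 to 9.22 in TSC22D4+LCN13 arrays. The endothelial, hepatocyte, nerve and adipocyte lists had 0 genes at a limma adjusted p below 0.05 in any comparison. Of the tendon and fibroblast list 1 of 14 passed, Postn, only for both viruses against control. The mean log2 level of 14 tendon and fibroblast markers ranged from 8.42 to 9.26 over the control arrays, 9.42 to 9.65 over LCN13, 9.02 to 9.57 over TSC22D4 and 9.27 to 9.87 over TSC22D4+LCN13 arrays. That of 10 macrophage and leukocyte markers was 6.32 to 6.46 in control arrays and 6.58 to 7.01 in TSC22D4+LCN13 arrays, with Cd3e and S100a8 not above the level reached by olfactory receptor genes. That of 5 measured red cell markers of 9 listed was 5.20 to 5.57 and 5.88 to 6.57 in the same 2 groups. Among them, Hbb-bs and Epb42 were not above that olfactory receptor level. For 17 interferon response genes the mean log2 level was 7.81 to 8.22 in control arrays and 6.38 to 6.69 in all others. In whole muscle, fewer cells of a type and less RNA per cell cannot be told apart.

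Where each factor lay on the array was read against 1082 olfactory receptor genes, a family with no known role in muscle, whose mean levels had a median of 4.94 and a 95th percentile of 5.29. All 9 factors lay above that percentile. Levels of different probe sets depend on their probes, so the percentiles below give a place in the distribution of an array and no ranking of transcript amounts. Myf6, Mef2a, Mef2c and Mef2d were at the 97.0th percentile or higher on every array, and Six4 between the 80.5th and 84.0th. Myod1 was at the 68.0th to 73.8th percentile, Myog at the 63.5th to 67.0th and Pax7 at the 59.2nd to 69.0th. Myf5, at the 42.8th to 50.3rd percentile, was nearest to the floor: its mean of 5.39 was above 96.8% of olfactory receptor genes, so a small shift in it is read close to background. As background, in resting adult muscle Myf6 and MEF2 factors are known from fibres and Pax7 and Myf5 from the few satellite cells.

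**Figure D1:**
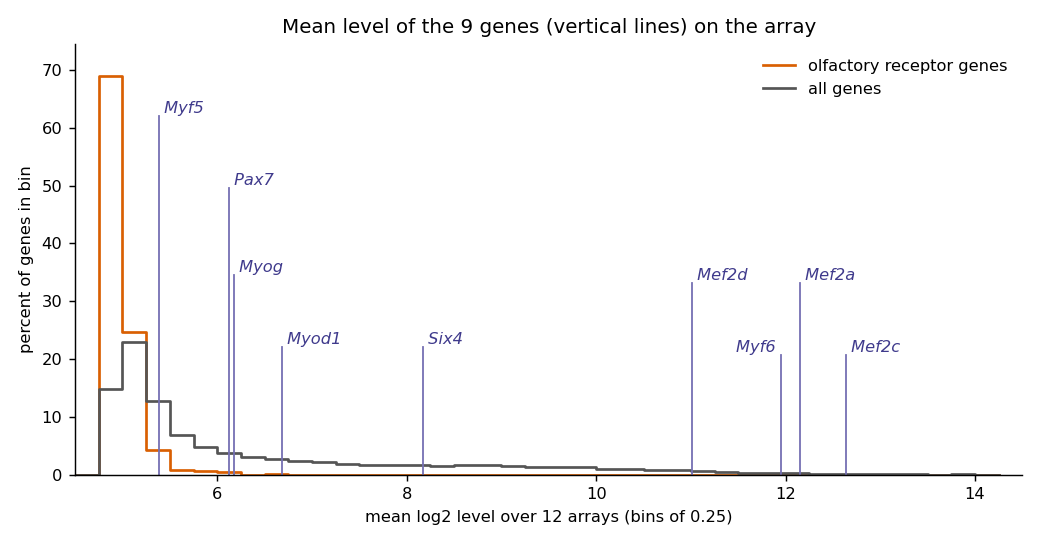
Mean log2 level over 12 arrays (horizontal axis, bins of 0.25) against the percent of genes in each bin, for all genes (grey) and 1082 olfactory receptor genes (orange). Vertical lines mark the 9 factors, and their height carries no value. Myf5 at 5.39 is the factor closest to the olfactory receptor genes, and the 3 MEF2 factors and Myf6 lie above 11.

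None of the 9 factors passed the test in any comparison. Levels were fitted with limma over all 12 arrays, with Benjamini-Hochberg adjustment of the p-values over all 23185 genes and a threshold of 0.05 on the adjusted p. The count was 0 of 9 for TSC22D4 against control, where 0.336% of all genes passed, for LCN13 against control (0.85% of all genes) and for TSC22D4+LCN13 against control (4.34%). It was also 0 of 9 for TSC22D4+LCN13 against TSC22D4 (0% of all genes, with 10.5% of them at an unadjusted p below 0.05) and against LCN13 (4.21%). The same held for the interaction, which asks whether the effect of TSC22D4 virus differed with and without LCN13 virus (0.125% of all genes), and for the average effect of TSC22D4 virus (4.41%) and of LCN13 virus (0.617%) over 6 arrays against 6. All these comparisons but the interaction also set unequal mean doses of control virus against each other. A test of any difference among the 4 groups also gave 0 of 9, against 3.33% of all genes. At an unadjusted p below 0.05, 1, 0 and 2 factors were found in the 3 comparisons with control, where 9.26%, 12.4% and 20.4% of all genes were. The counts were 2 and 3 for TSC22D4+LCN13 against TSC22D4 and LCN13 (10.5% and 20.9% of all genes), 1 for the interaction (9.57%), and 3 and 0 for the average effects of TSC22D4 and LCN13 virus (20.8% and 13.4%).

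The intervals show how large a change could have been missed. Against control, the 95% intervals of the 9 differences together spanned -0.31 to 0.42 on the log2 scale for TSC22D4, -0.36 to 0.27 for LCN13 and -0.51 to 0.53 for TSC22D4+LCN13. The differences themselves ran from -0.09 to 0.15, from -0.09 to 0.07 and from -0.25 to 0.26. With TSC22D4 virus alone 8 of 9 factors were above control, with LCN13 virus 3 of 9 and with both 4 of 9. The 3 comparisons share the same control arrays, so these signs are not separate observations. Within-group spread decided how narrow each interval was: the within-group SD was 0.170 for Myod1, 0.161 for Pax7 and 0.133 for Six4, against 0.0643 for the median gene and 0.0418 for Myf5.

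**Figure D2:**
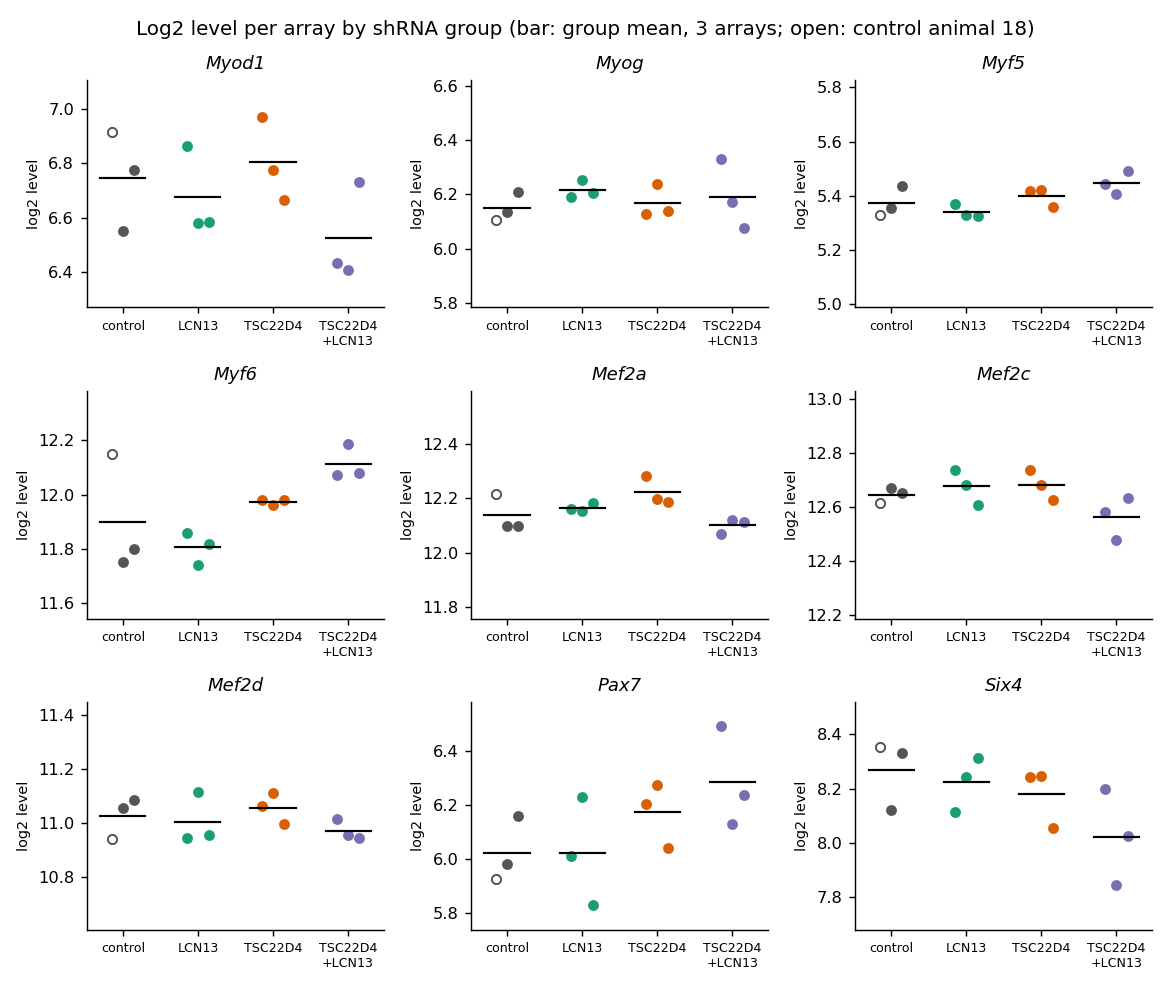
Log2 level (vertical axis, one scale per gene) of the 9 factors on each of the 12 arrays, by shRNA group, with a bar at the mean of 3 arrays and control animal 18 as an open point. Myf5, Myf6 and Mef2a separate TSC22D4+LCN13 from LCN13 arrays, as 22.6% of all genes do. For Myf6, animal 18 stands above the other 2 controls.

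Among the myogenic regulatory factors, Myf6 came closest to a change. Myf6 measured 12.15, 11.75 and 11.80 in control animals 18, 19 and 20, 11.86, 11.74 and 11.82 in LCN13, 11.98, 11.96 and 11.98 in TSC22D4 and 12.07, 12.19 and 12.08 in TSC22D4+LCN13 arrays. The lowest TSC22D4+LCN13 array was above all TSC22D4 and all LCN13 arrays, while control animal 18 alone reached the same height among controls. Group means were 11.90 ± 0.218, 11.81 ± 0.0603, 11.97 ± 0.0102 and 12.11 ± 0.0638 (SD, n = 3 each) in that order. The largest difference was that of TSC22D4+LCN13 against LCN13, 0.31 on the log2 scale or 1.24-fold (SE 0.0888, 95% interval 0.11 to 0.51, limma adjusted p = 0.085). Against control it was 0.21 (adjusted p = 0.214) and averaged over both TSC22D4 groups 0.19 (adjusted p = 0.118). Neighbours in the order of the Myf6 means did not differ past the threshold.

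The Myf6 result depended on control animal 18. With that array left out Myf6 was 0.34 higher in TSC22D4+LCN13 than in control (limma adjusted p = 0.0111), its average TSC22D4 virus effect was 0.25 (adjusted p = 0.00757), and its difference from LCN13 passed too (adjusted p = 0.0121), as did the test of any difference (adjusted p = 0.019). Leaving out each of the other 11 arrays gave adjusted p values of up to 0.481 for Myf6 against control, and none below 0.05. Over 81 results of the 9 factors and 1332 fits with another setting or an array left out, these 4 were the only ones to pass. No label sets animal 18 apart from the other controls. The tendon and fibroblast, macrophage and red cell markers given above were also higher in TSC22D4+LCN13 than in control arrays. Tendon and fibroblast markers were at 9.42 to 9.65 in LCN13 arrays too, where the Myf6 mean was lowest. The part of these markers in the Myf6 values was not tested.

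Myod1 varied most within groups. Its levels were 6.92, 6.55 and 6.78 in control, 6.86, 6.58 and 6.58 in LCN13, 6.97, 6.78 and 6.67 in TSC22D4 and 6.43, 6.41 and 6.73 in TSC22D4+LCN13 arrays. Animals 29 and 30, given both viruses, had the lowest values of all 12 arrays, and the third lay among the controls. The TSC22D4+LCN13 mean was 0.22 below control (SE 0.127, limma adjusted p = 0.369) and 0.28 below TSC22D4 (95% interval -0.57 to 0.01, adjusted p = 0.485), neither past the threshold.

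Myog, the differentiation factor, had the smallest F statistic of the 9 for any difference among groups (0.468, limma adjusted p = 0.869). It measured 6.10, 6.14 and 6.21 in control, 6.19, 6.25 and 6.21 in LCN13, 6.13, 6.24 and 6.14 in TSC22D4 and 6.33, 6.17 and 6.08 in TSC22D4+LCN13 arrays. All groups overlapped, and TSC22D4+LCN13 held both the highest and the lowest array. Against control the 3 differences were 0.02, 0.07 and 0.04, with 95% intervals of -0.12 to 0.15, -0.07 to 0.20 and -0.09 to 0.18 for TSC22D4, LCN13 and both.

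Myf5 measured 5.33, 5.35 and 5.44 in control, 5.37, 5.33 and 5.33 in LCN13, 5.42, 5.42 and 5.36 in TSC22D4 and 5.44, 5.41 and 5.49 in TSC22D4+LCN13 arrays. Every TSC22D4+LCN13 array was above every LCN13 array, by 0.10 in the means (SE 0.0348, limma adjusted p = 0.123), and overlapped with controls. Myf5 and Myf6 both had their highest mean in TSC22D4+LCN13 and their lowest in LCN13 arrays. Neither passed the test of any difference among groups (limma adjusted p = 0.282 for Myf5 and 0.204 for Myf6). The Myf5 means are read close to background. Myf5 and Myf6 are neighbouring genes in the RefSeq annotation, but a link between their position and the order of their means was not tested.

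The MEF2 factors moved over a narrow range. Mef2a measured 12.22, 12.10 and 12.10 in control, 12.16, 12.15 and 12.18 in LCN13, 12.28, 12.20 and 12.19 in TSC22D4 and 12.07, 12.12 and 12.11 in TSC22D4+LCN13 arrays. All 3 TSC22D4+LCN13 arrays lay below all TSC22D4 and all LCN13 arrays, while against controls animals 30 and 32 were within their range and animal 29 just below it. The difference from TSC22D4 was -0.12 (SE 0.0378, 95% interval -0.20 to -0.04, limma adjusted p = 0.326). The Mef2a interaction was -0.15 (adjusted p = 0.399): TSC22D4 virus went with a difference of 0.08 without LCN13 virus and of -0.06 with it.

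Mef2c measured 12.62, 12.67 and 12.65 in control, 12.74, 12.68 and 12.61 in LCN13, 12.74, 12.68 and 12.63 in TSC22D4 and 12.58, 12.48 and 12.63 in TSC22D4+LCN13 arrays. Its pattern resembled that of Mef2a, with the lowest mean under both viruses, but the groups overlapped. The difference from TSC22D4 was also -0.12 (SE 0.0473, limma adjusted p = 0.431) and the interaction -0.15 (adjusted p = 0.53). Mef2d stayed between 10.94 and 11.11 on all 12 arrays, a range of 0.17, with 95% intervals against control of -0.09 to 0.15, -0.14 to 0.10 and -0.18 to 0.07 for TSC22D4, LCN13 and both.

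Pax7, the satellite cell factor, had the widest range of the 9, 0.66. It measured 5.93, 5.98 and 6.16 in control, 6.01, 6.23 and 5.83 in LCN13, 6.20, 6.27 and 6.04 in TSC22D4 and 6.49, 6.13 and 6.24 in TSC22D4+LCN13 arrays. The highest array was animal 29, and control and TSC22D4+LCN13 arrays overlapped at 6.13 to 6.16. The mean was 0.26 higher than control under both viruses (SE 0.120, 95% interval -0.01 to 0.53, limma adjusted p = 0.257) and 0.15 higher under TSC22D4 virus (adjusted p = 0.808). Under LCN13 virus the 95% interval was -0.27 to 0.27. Without animal 29 the difference under both viruses was 0.16 (adjusted p = 0.524).

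Six4 measured 8.36, 8.12 and 8.33 in control, 8.11, 8.24 and 8.31 in LCN13, 8.24, 8.25 and 8.05 in TSC22D4 and 8.20, 7.84 and 8.02 in TSC22D4+LCN13 arrays. Animals 30 and 32 had the lowest levels of all, and animal 29 lay inside the control range. The difference from control under both viruses was -0.25 on the log2 scale (SE 0.0996, 95% interval -0.47 to -0.02, limma adjusted p = 0.198). Its order of means, control, LCN13, TSC22D4 and both, had no pair of neighbours that differed past the threshold.

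**Figure D3:**
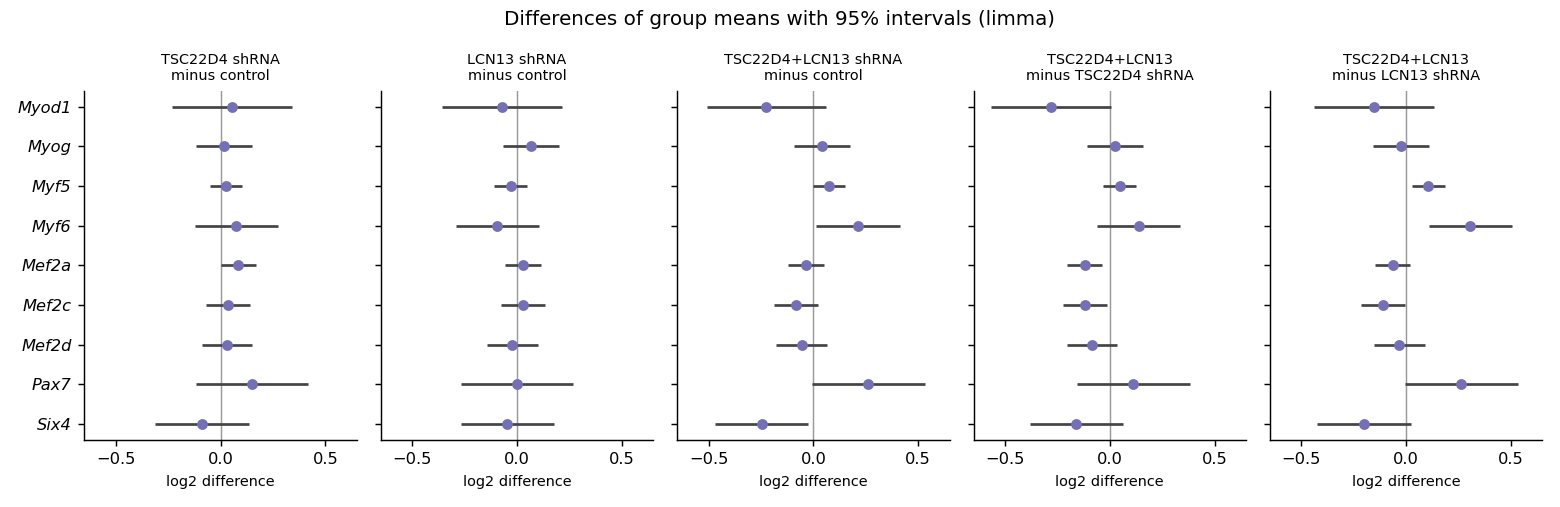
Difference of group means on the log2 scale (points) with its 95% interval from limma (lines), for each of the 9 factors (vertical axis), in 5 pairwise comparisons of the 4 groups. The intervals of Myod1, Pax7 and Six4 are the widest, and Myf6 in TSC22D4+LCN13 against LCN13 shRNA is centred at 0.31.

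Separation of all arrays of a pair of groups was counted as well. Against control, 0 of 9 factors had non-overlapping arrays for each of the 3 viruses or mixtures, while 16.9%, 18.8% and 23.7% of all genes did for TSC22D4, LCN13 and both. For TSC22D4+LCN13 against TSC22D4 it was 2 of 9 (Myf6 higher, Mef2a lower) with 14.6% of all genes, and against LCN13 3 of 9 (Myf5 and Myf6 higher, Mef2a lower) with 22.6%.

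For each factor the genes with the closest profile over the 12 arrays were found among 20199 named genes, as a description by Pearson's r. The arrays share groups, and the genes were picked as the highest of all candidates. For Myod1 they were Mlxip, Mast4 and Asb2 (r = 0.93, 0.93 and 0.926), all at levels of 9.39 or more. Mlxip remained close when group means were removed (r = 0.967). For Myf6 they were Cst3, an immunoglobulin heavy chain segment and Cab39l (0.93, 0.915 and 0.914), for Mef2a H2-Oa, Pigc and Vmn2r77 (0.875, 0.859 and 0.859), for Mef2c Tmc7, Dnmt3a and Rabgef1 (0.934, 0.916 and 0.912) and for Mef2d Rgp1, Mhrt and Mir338 (0.897, 0.872 and 0.855). For Six4 they were Oit1, Tbc1d4 and Ube2j2 (0.9, 0.882 and 0.88), for Myf5 Gfra1, Fam117a and Grk3 (0.939, 0.916 and 0.899), for Myog H2-M10.4, Pdzd9 and Zbtb11os1 (0.928, 0.895 and 0.871) and for Pax7 Tas2r123, Rps15a-ps1 and Tfap2d (0.92, 0.912 and 0.882). The top partners of Pax7 lay at 4.84 to 5.04, among the olfactory receptor genes, and Tas2r123 spanned only 0.0373 over 12 arrays. Partners of other factors also lay below the olfactory receptor 95th percentile of 5.29. They were the immunoglobulin segment of Myf6 (4.92), H2-Oa and Vmn2r77 of Mef2a (5.26 and 4.90) and Mir338 of Mef2d (5.06). H2-M10.4 and Pdzd9 of Myog (5.20 and 5.10) and Oit1 of Six4 (5.16) did so too. Such profiles are read close to background.

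While the factors themselves did not pass, 29 genes of the lists around them did in at least 1 of the 8 comparisons, 22 of them for both viruses against control. In that comparison 4.34% of all genes passed, and the share of all genes passing in any of the 8 is not given here. Each list held 19 to 37 measured genes, and some genes were in more than 1 list. The 9 lists of surrounding genes were satellite cell and quiescence genes, bHLH partners and inhibitors, MEF2 partners and regulators, the Six4 and Eya families with other upstream regulators, fusion genes, differentiation targets, denervation-responsive genes, proliferation genes and extrinsic signals. The lists were chosen with earlier results of these data known. Their shares beside those of all genes are thus a description and not independent support. With TSC22D4 virus alone 0 genes of any list passed, where 0.336% of all genes did. With LCN13 virus alone 3 list genes passed, where 0.85% of all genes did. They were the coactivator Carm1 (-0.22, adjusted p = 0.0218), the calcineurin subunit Ppp3ca (-0.30, adjusted p = 0.0322) and the ubiquitin ligase Trim63 of the denervation list (-0.75, adjusted p = 0.0251). These 3 calls were lost on leaving out 3, 8 and 4 of the 12 arrays in turn, with adjusted p of up to 0.0907 (without control animal 20), 0.113 and 0.0655 (both without LCN13 animal 21). Trim63 was also 0.62 higher in TSC22D4+LCN13 than in LCN13 arrays (adjusted p = 0.0261), with means of 10.72 under both viruses and 10.85 in control. With only the arrays of those 2 groups fitted, 0 of all genes passed for both viruses against LCN13. Under both viruses 22 list genes passed against control. Of these, 9 passed in all 12 fits that left out an array: Cdh15, Id2, Kat2b, Ppp3ca, Zbtb18, Actc1, Tceal7, Bmp4 and Mki67. When only the 6 arrays of the pair were fitted, Zbtb18 passed (adjusted p = 0.027) and the other 21 did not, with adjusted p of up to 0.152.

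**Figure D4:**
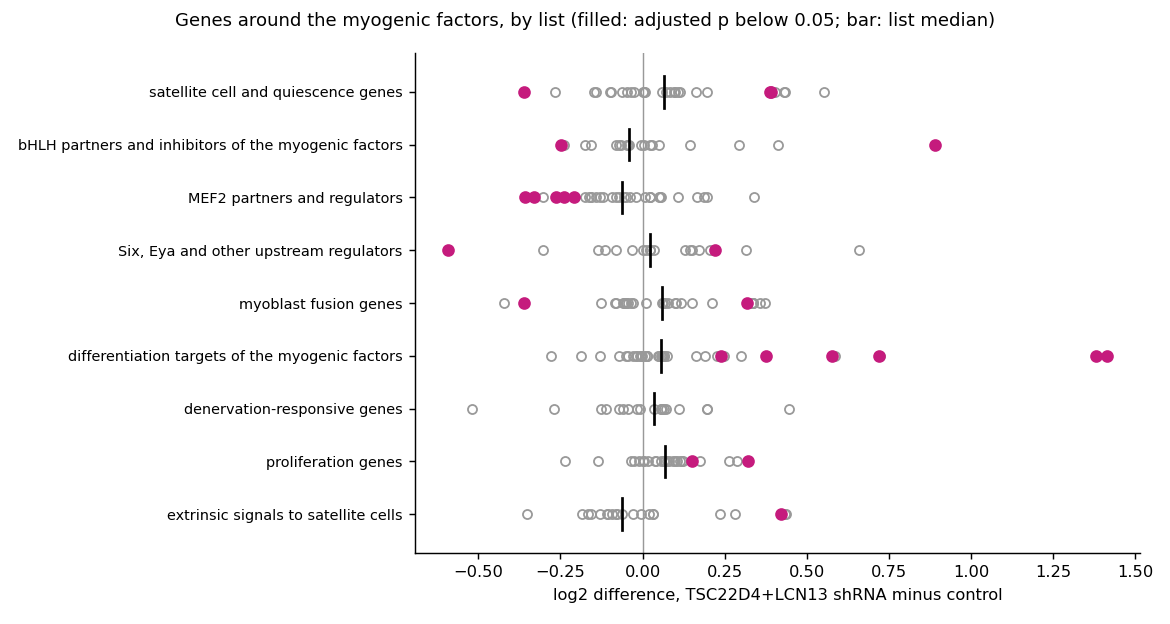
Log2 difference of TSC22D4+LCN13 from control shRNA (horizontal axis) for every measured gene of 9 lists (rows); filled points passed at an adjusted p below 0.05 over all genes, open points did not, and black bars are list medians. All 5 filled points of the MEF2 list are below 0 and all 6 of the differentiation list above 0, with medians of -0.06 and 0.06.

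Differentiation targets of the myogenic factors had 6 of 37 members higher and 0 lower under both viruses, with a list median of 0.06 against -0.005 for all genes, of which 1.72% were higher. Actc1, the cardiac alpha-actin that developing muscle also makes, measured 11.12, 11.30 and 11.52 in control, 11.50, 11.60 and 11.72 in LCN13, 12.10, 12.34 and 11.86 in TSC22D4 and 12.70, 12.41 and 13.06 in TSC22D4+LCN13 arrays. The TSC22D4 arrays lay wholly between those of control and of both viruses. Actc1 rose 2.67-fold under both viruses (log2 difference 1.41, SE 0.174, limma adjusted p = 0.00413). Tceal7 measured 6.49, 6.09 and 6.07 in control and 7.39, 7.46 and 7.95 in TSC22D4+LCN13 arrays (1.38, adjusted p = 0.00641), with both single-virus groups in between. The others were the myosin-binding protein Mybph (0.38), the cell cycle inhibitor Cdkn1c (0.24), the cardiac and slow-fibre calcium store protein Casq2 (0.58) and the Z-disc protein Csrp3 (0.72). Mybph, Casq2 and Csrp3 are named after their values were seen. Their calls and that of Cdkn1c were lost on leaving out 3 to 10 arrays in turn, with adjusted p of up to 0.118, 0.129, 0.0991 and 0.0616 for Mybph, Casq2, Csrp3 and Cdkn1c. The count of 6 became 2 without control animal 19 or TSC22D4+LCN13 animal 32 and 3 without control animal 18, control animal 20 or TSC22D4+LCN13 animal 29. Myl4, the embryonic and atrial myosin light chain, was lower in TSC22D4+LCN13 than in LCN13 arrays (-0.43, adjusted p = 0.0227), which ended without LCN13 animal 23 (adjusted p = 0.0608).

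Of the MEF2 partners and regulators 0 of 32 members were higher and 5 lower under both viruses, with a median of -0.06, where 2.62% of all genes were lower. Ppp3ca, the catalytic subunit of calcineurin, a phosphatase that activates MEF2, measured 11.96, 11.87 and 11.79 in control, 11.56, 11.67 and 11.49 in LCN13, 11.67, 11.61 and 11.60 in TSC22D4 and 11.52, 11.49 and 11.52 in TSC22D4+LCN13 arrays. All 9 arrays with a target virus were below all controls, and the fall under both was -0.36 (SE 0.0507, limma adjusted p = 0.00737). How many of all genes separate in that way is not given here, but 23.7% do for both viruses against control alone. The others were the acetyltransferase Kat2b (-0.33, adjusted p = 0.00983), the arginine methyltransferase Carm1 (-0.21, adjusted p = 0.0117), the MCAT-site factor Tead1 (-0.26, adjusted p = 0.0197) and the class IIa deacetylase Hdac5, a MEF2 repressor (-0.24, adjusted p = 0.0276). Hdac5 is named after its value was seen. The count was 2 without control animal 20, where Carm1 (adjusted p = 0.0524), Tead1 (0.0679) and Hdac5 (0.0884) did not pass, and Hdac5 also lost its call without control animals 18 and 19 and TSC22D4+LCN13 animal 32.

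Among 19 bHLH partners and inhibitors 1 was higher and 1 lower under both viruses, against 1.72% and 2.62% of all genes, with a list median of -0.04. Id2, an inhibitor that ties up E proteins, measured 6.89, 7.10 and 6.86 in control, 7.72, 7.61 and 7.36 in LCN13, 7.27, 7.52 and 7.50 in TSC22D4 and 7.56, 7.94 and 8.002 in TSC22D4+LCN13 arrays. All 9 arrays with a target virus exceeded all controls, and Id2 rose by 0.89 or 1.85-fold under both (SE 0.133, limma adjusted p = 0.00912). The share of all genes separated in that way is not given here. For both viruses against control alone, 23.7% of all genes had non-overlapping arrays. Under LCN13 virus alone it was 0.62 higher (adjusted p = 0.0796) and under TSC22D4 virus 0.48 higher (adjusted p = 0.231), which did not pass. Tcf3, which codes for the E proteins E12 and E47, was 0.25 lower under both viruses (log2 difference -0.25, adjusted p = 0.0456), a call lost on leaving out 10 of the 12 arrays in turn (adjusted p = 0.14 without control animal 20).

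Of the Six4 and Eya families and other upstream regulators 19 of 21 were measured, 1 higher (1.72% of all genes) and 1 lower (2.62%) under both viruses, with a median of 0.02. Zbtb18 (also called RP58), a repressor of Id genes that myoblasts need to differentiate, measured 8.41, 8.44 and 8.46 in control, 8.70, 8.41 and 8.39 in LCN13, 8.06, 8.15 and 8.19 in TSC22D4 and 7.77, 7.85 and 7.92 in TSC22D4+LCN13 arrays. Both groups with TSC22D4 virus lay below all arrays without it, a separation whose share over all genes is not given here. Zbtb18 fell by 0.59 under both viruses against control (SE 0.0760, limma adjusted p = 0.00477), and its average TSC22D4 virus effect over 6 arrays against 6 was -0.48 (SE 0.0538, adjusted p = 0.00334). Under TSC22D4 virus alone the difference was -0.30 (adjusted p = 0.178). The hedgehog effector Gli2 was 0.22 higher under both (adjusted p = 0.032), lost without 5 arrays in turn (adjusted p = 0.106 without control animal 20).

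**Figure D5:**
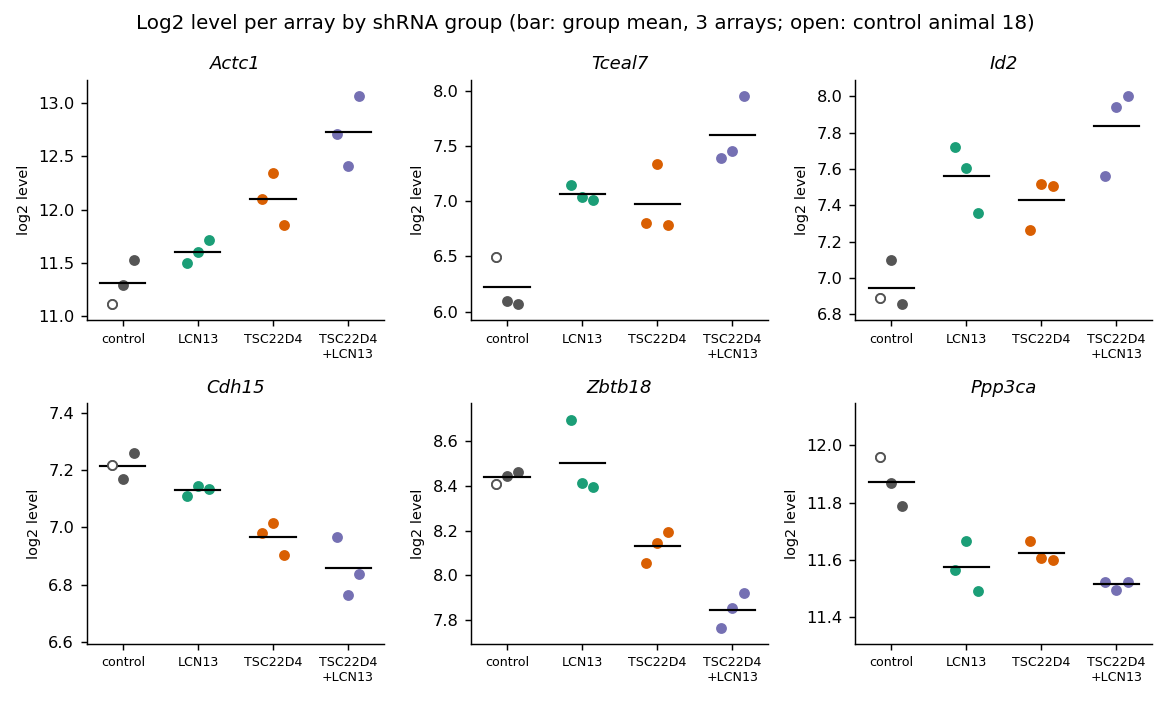
Log2 level (vertical axis, one scale per gene) on each of 12 arrays by shRNA group for 6 genes of the surrounding lists. They were picked from the 22 list genes past the threshold for TSC22D4+LCN13 against control. A bar marks the mean of 3 arrays and an open point control animal 18. The group means of Actc1, Tceal7 and Id2 are highest and those of Cdh15, Zbtb18 and Ppp3ca lowest for TSC22D4+LCN13, with single arrays of Id2, Cdh15 and Ppp3ca overlapping another group.

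Satellite cell and quiescence genes had 2 of 28 members higher and 1 lower under both viruses, where 1.72% of all genes were higher and 2.62% lower, with a list median of 0.07. Cdh15 (M-cadherin), which holds satellite cells to the fibre and is also in the fusion list, measured 7.22, 7.17 and 7.26 in control, 7.11, 7.15 and 7.14 in LCN13, 6.98, 7.02 and 6.91 in TSC22D4 and 6.97, 6.77 and 6.84 in TSC22D4+LCN13 arrays. The arrays of all 3 other groups were below all controls, a separation whose share over all genes is not given here. For both viruses against control alone, that share was 23.7%. The fall of Cdh15 under both viruses was -0.36 (SE 0.0496, limma adjusted p = 0.00652). Averaged over both TSC22D4 groups the Cdh15 difference was -0.26 (adjusted p = 0.00602), while Pax7, of the same cells, had a positive difference that did not pass. Vcam1, an adhesion molecule of satellite and endothelial cells, and Cxcr4, a chemokine receptor, were each 0.39 higher (adjusted p = 0.0302 and 0.0378). Vcam1 lost its call without control animals 18, 19 or 20 or animal 29 (adjusted p of up to 0.101), and Cxcr4 without 9 of 12 arrays in turn (up to 0.107 without control animal 19). Both are also made by endothelial or blood cells, whose 13 endothelial and mural markers had 0 members past the threshold, while 2 of 10 macrophage and leukocyte markers were higher (Mrc1 0.81 and Adgre1 0.49). Their part in the Vcam1 and Cxcr4 values was not tested.

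Of 30 fusion genes, where again 2.62% of all genes were lower and 1.72% higher, Cdh15 was lower and the engulfment adaptor Dock1 higher (0.32, adjusted p = 0.0491, lost without 11 of 12 arrays in turn, up to 0.134 without control animal 20), with a median of 0.06. Mymk (myomaker), the membrane protein needed for fusion, measured 5.26 in control and 5.59 under both viruses (adjusted p = 0.233). The control level lay below the olfactory receptor 95th percentile of 5.29, so the Mymk difference is read close to background. Mymk was named outside the naming rule given below. Of 19 measured denervation-responsive genes, which change when a muscle loses its nerve supply, 0 passed under both viruses (4.34% of all genes in either direction), with a median of 0.03. The acetylcholine receptor subunit Chrna1, a classic E-box target, measured 9.50 in control, 9.79 under LCN13 virus (adjusted p = 0.0579) and 9.56 under both, and its interaction of -0.43 did not pass (adjusted p = 0.107).

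Proliferation genes had 2 of 27 measured members higher under both viruses and 0 lower, against 1.72% and 2.62% of all genes, with a median of 0.07. Mki67, of dividing cells, measured 5.19, 5.23 and 5.27 in control and 5.51, 5.50 and 5.63 in TSC22D4+LCN13 arrays, a rise of 0.32 (limma adjusted p = 0.00903). Top2a rose by 0.15 (adjusted p = 0.0254), lost without 4 arrays in turn (adjusted p of up to 0.0738 without control animal 19). Cdc20, an activator of mitotic exit in the same list, did not pass against control but was lower in TSC22D4+LCN13 than in LCN13 arrays (-0.28, adjusted p = 0.0367) and in the average TSC22D4 virus effect (-0.22, adjusted p = 0.0253). These Cdc20 calls were lost without 8 and 7 of 12 arrays in turn, with adjusted p of up to 0.111 (without LCN13 animal 21) and 0.0609 (without TSC22D4 animal 25), and the first of them also with only the arrays of the 2 compared groups (0.151). Mki67 and Top2a lay near the olfactory receptor genes, above 95.9% and 91.3% of them. The macrophage and red cell markers named above were higher in the same arrays, and their part in the proliferation values was not tested. Of 21 extrinsic signals 1 rose under both viruses (1.72% of all genes), Bmp4, a growth factor that keeps satellite cells dividing, with 6.56, 6.37 and 6.54 in control and 6.94, 6.96 and 6.83 in TSC22D4+LCN13 arrays (0.42, SE 0.0621, adjusted p = 0.00902), and the median of that list was -0.06.

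Besides Cdc20, Trim63 and Myl4, 4 list genes passed only outside the comparison of both viruses with control. Of all genes, 4.21% passed for both viruses against LCN13, 4.41% in the average TSC22D4 virus effect and 0.617% in the average LCN13 virus effect. Lif, a cytokine that stimulates myoblasts, was lower in TSC22D4+LCN13 than in LCN13 arrays (-0.15, limma adjusted p = 0.0313), at a mean of 5.32 near the olfactory receptor genes. The growth factor Igf2 and the Notch ligand Jag2 were lower in the average TSC22D4 virus effect (-0.23, adjusted p = 0.0363, and -0.20, adjusted p = 0.0475), and the transcription factor Runx1 of the denervation list was higher in the average LCN13 virus effect (0.19, adjusted p = 0.0438). The Lif call was lost without 5 arrays in turn (adjusted p of up to 0.0949, without LCN13 animal 21) and with only the arrays of the 2 compared groups (0.111). Those of Igf2, Jag2 and Runx1 were lost without 10 of 12 each, with adjusted p of up to 0.0696 (without TSC22D4+LCN13 animal 29), 0.102 (without TSC22D4 animal 26) and 0.122 (without TSC22D4 animal 25).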

How the data were processed

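RNA of 12 gastrocnemius samples, 3 animals in each of 4 groups, was put on 1-colour Affymetrix arrays. The deposited log2 values are RMA output, according to the submitters' processing notes (version, probe definitions and build not given in the sources used here). RMA makes the arrays equally distributed, so a shift of most transcripts one way would not show. Of 25206 probe sets, 23185 had a single symbol and 2021 (8.02%) did not and were left out. No low-value filter was used. A linear model per gene (limma 3.58.1, lmFit and eBayes, R 4.3.3) was fitted over 12 arrays and 4 group means (8 residual and 1.69 prior degrees of freedom). Tests were two-sided, Benjamini-Hochberg adjusted within a comparison, and differences are of mean log2 level with the moderated SE. The steps were tested on simulated data. No batch is given in the sources used here, and animal numbers pair no samples. The members and the lists were chosen with earlier results of these data known. Named genes were the members, 3 most similar genes each, and up to 4 list genes past the threshold plus 2 others per list, of which a subset is named. Hdac5, Mybph, Casq2, Csrp3 and Mymk were named outside that rule. Alternatives were genes at or above the median level, trend and robust options, quantile normalization, median centring, the compared arrays alone and each array left out.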

Additional observations from a re-analysis of the deposited data

How the results depend on the processing

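The 9 factors had 0 calls under every alternative except those that left out control animal 18, where Myf6 passed. Myf5, at a mean of 5.39, lay below the median level of 5.49. It was therefore not tested in the fit of genes at or above that level. Leaving out 1 array gave 0 to 1 factors for TSC22D4+LCN13 against control and against LCN13, for the average TSC22D4 virus effect and for any difference. No result reversed, and 21 of 81 results of the factors changed sign near 0 somewhere. Counts of all genes ranged, with 1 array left out, from 36 to 105 for TSC22D4 against control (78 with all arrays), 77 to 280 for LCN13 (197), 334 to 1106 for both viruses (1007), 0 to 2 and 318 to 1320 for both against TSC22D4 and against LCN13 (0 and 977). They ranged from 3 to 50 for the interaction (29), 489 to 1460 and 39 to 214 for the average TSC22D4 and LCN13 effects (1022 and 143) and 354 to 1072 for any difference (773). With the compared arrays alone, which leaves fewer residual degrees of freedom, these counts were 33, 18 and 124 against control and 0 for both viruses against LCN13. With only genes at or above the median level they were 51 for the interaction and 233 for the average LCN13 effect, with fewer genes tested. For both viruses against control, list counts with 1 array left out ranged from 1 to 3 for satellite cell genes, 1 to 2 for bHLH partners, 2 to 5 for MEF2 partners, 1 to 2 for Six4 and Eya regulators, 1 to 3 for fusion, 2 to 7 for differentiation, 1 to 4 for proliferation and 1 to 2 for extrinsic signals. With the compared arrays alone they were 1 for the Six4 and Eya and differentiation lists and 0 for the satellite cell, bHLH, MEF2, fusion, proliferation and extrinsic lists. With trend and robust options they were 1 for bHLH partners, 3 for MEF2 partners, 1 for fusion and 4 for proliferation, and with genes at or above the median level 0 for proliferation, whose genes are mostly below that level; the cause of the trend and robust shifts was not tested. Quantile normalization and median centring moved no count by over 1.5 times. With 3 arrays a group, the size of change that could be detected differed between genes with their spread. The SE of a difference from control was 0.0348 for Myf5 and 0.127 for Myod1. A change inside the interval of a factor could have been missed. No paired analysis was possible because the animal numbers differ between groups.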
